A study of Mus musculus with 2 samples.

Results

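The 6 genes Uhrf1, Dnmt1, Dnmt3a, Dnmt3b, Cdca7 and Hells encode the DNA methyltransferases and the proteins that bring them to newly replicated DNA. They were taken by their symbol in the platform annotation, out of 19057 genes with a named probe, and 11 probes carried their names. RNA was measured in wild-type mouse lens at stage E12.5 with 1 Illumina array for lens epithelium and 1 for lens fibers, as the labels name them. The sources used here do not give the strain, the number of embryos or the way the tissues were parted. With 1 array a group there is no replicate error, so no test was made, and each ratio compares these 2 arrays.

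Methylation of cytosine in CpG pairs is lost from the new strand each time DNA is copied and has to be put back. UHRF1 binds the hemimethylated CpG behind the replication fork and marks histone H3 with ubiquitin, which recruits and activates the maintenance methyltransferase DNMT1. HELLS, a remodelling ATPase, and its partner CDCA7 open nucleosomal DNA for this step, and loss of either lowers methylation in repeats. DNMT3A and DNMT3B set new methylation and are not tied to replication in the same way. In the lens, epithelial cells divide at the front, while the fiber cells behind them leave the cell cycle and elongate.

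The measured maintenance genes and the de novo genes differed in their ratios on these arrays. Cdca7, Uhrf1 and Dnmt1 read 11.0-fold, 8.02-fold and 5.30-fold higher in epithelium than in fibers. Dnmt3a and Dnmt3b were dim and lay within 1.36-fold of equality. Neither had a direction with a stricter background level or with the mean of all probes. Hells gave no signal above background on either array. The genes were chosen by their names with the fibers over epithelium ratios of these same arrays in view, so their values are a description. A difference of 2-fold or more toward epithelium was seen in 3 of the 5 measured members, beside 18.5% of all measured genes. Toward fibers it was seen in 0 of the 5, beside 15.5%. Scaled to housekeeping genes, the counts were again 3 and 0 of 5. The shares of all measured genes became 44.7% and 3.96%, so the first count then stands much nearer the background.

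The promoters are shown as sequence background. E2F factors, which switch on genes of the S phase, bind a short motif whose letters can be searched for. Any link between the motif and the ratios was not tested. RefSeq (GRCm38.p6) gave 11 promoters of 300 bases for the 6 genes, from 250 bases before each start site to 50 after it, and genes with several starts are numbered in the order of the table. The E2F-type motif was searched on both strands as TTTCCCGC, TTTCGCGC, TTTGCCGC or TTTGGCGC, and was chosen with the promoters in view. It was present in 2.26% of 32851 promoters of that length. Capitals mark the motif on either strand, and Dnmt3b is printed as a promoter without a match.
Uhrf1, start 2, chr17:56304063-56304362, plus strand: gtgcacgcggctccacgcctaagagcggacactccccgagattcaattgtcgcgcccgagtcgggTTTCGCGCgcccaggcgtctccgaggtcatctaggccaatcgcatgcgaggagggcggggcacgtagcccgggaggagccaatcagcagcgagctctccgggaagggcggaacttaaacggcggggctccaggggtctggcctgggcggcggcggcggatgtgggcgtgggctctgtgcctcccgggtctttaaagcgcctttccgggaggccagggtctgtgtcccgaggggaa
Dnmt1, start 3, chr9:20952574-20952873, minus strand: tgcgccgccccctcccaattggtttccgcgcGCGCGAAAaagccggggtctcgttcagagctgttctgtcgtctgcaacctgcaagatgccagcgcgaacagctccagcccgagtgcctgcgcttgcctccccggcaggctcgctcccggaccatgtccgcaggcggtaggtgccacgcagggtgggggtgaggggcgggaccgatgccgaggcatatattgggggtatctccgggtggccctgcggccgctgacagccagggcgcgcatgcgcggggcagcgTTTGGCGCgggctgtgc
Cdca7, start 1, chr2:72475969-72476268, plus strand: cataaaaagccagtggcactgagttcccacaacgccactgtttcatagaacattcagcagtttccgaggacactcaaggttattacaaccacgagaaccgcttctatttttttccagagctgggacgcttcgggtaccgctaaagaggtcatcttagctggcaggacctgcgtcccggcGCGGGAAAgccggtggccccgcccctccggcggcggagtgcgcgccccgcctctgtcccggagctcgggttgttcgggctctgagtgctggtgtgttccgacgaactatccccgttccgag
Hells, start 1, chr19:38930740-38931039, plus strand: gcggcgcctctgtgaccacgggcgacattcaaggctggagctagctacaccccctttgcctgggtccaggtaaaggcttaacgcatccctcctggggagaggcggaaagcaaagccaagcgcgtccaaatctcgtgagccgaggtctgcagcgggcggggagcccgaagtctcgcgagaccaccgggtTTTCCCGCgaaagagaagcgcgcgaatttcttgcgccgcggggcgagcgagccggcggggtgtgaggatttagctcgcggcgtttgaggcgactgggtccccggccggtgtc
Dnmt3b, start 1, chr2:153649199-153649498, plus strand: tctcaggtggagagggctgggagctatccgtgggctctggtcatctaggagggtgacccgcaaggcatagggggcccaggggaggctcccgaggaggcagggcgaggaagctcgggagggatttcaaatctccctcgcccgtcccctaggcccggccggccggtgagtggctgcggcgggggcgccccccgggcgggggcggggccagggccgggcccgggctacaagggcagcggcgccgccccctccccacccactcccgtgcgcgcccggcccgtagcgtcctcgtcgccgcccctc

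At least 1 promoter held the motif in 4 of the 6 genes, Uhrf1, Dnmt1, Cdca7 and Hells, against 704 of 27025 genes with a promoter in the table (2.61%) and 250 of 5248 measured genes (4.76%). Of 22 replication fork and licensing genes with a promoter in the table, 9 held it. Among those at 2-fold or more toward epithelium, Mcm5, Mcm6 and Cdc6 held it, and Rrm2, Rrm1, Mcm2, Rfc4 and E2f1 did not. Mcm7 and Cdt1 held it with smaller bounds toward epithelium, and Mcm3, Pola1, Pold1 and Rfc3 held it but were below the floor on both arrays. In Uhrf1 the motif began 185 bases before start 2, in Cdca7 71 bases before the start and in Hells 62 bases before it. Dnmt1 had 2 matches at start 3, of which 1 began 219 bases before it and the other 33 bases after it. None of the 3 Dnmt3a promoters and not the Dnmt3b promoter held these letters, nor did Uhrf1 start 1 or Dnmt1 starts 1 and 2. The genes were chosen with their ratios in view and the motif with these promoters in view, so the shares are a description. A match is a run of letters in a window, and no binding was measured here.

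**Figure D1:**
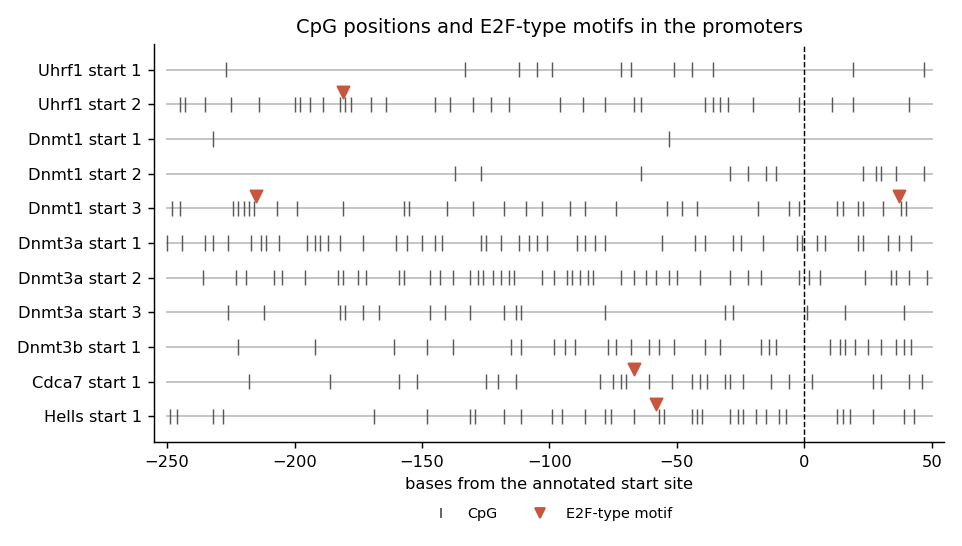
CpG pairs (grey ticks) and E2F-type motifs (red triangles) in the 11 promoters, by distance in bases from the annotated start site (dashed line). Motifs lie at Uhrf1 start 2, Dnmt1 start 3, Cdca7 and Hells, and at none of the Dnmt3a or Dnmt3b starts.

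The promoters with a motif were also rich in CpG, the pair these enzymes act on. Every form of the motif itself holds CpG, so a match and the CpG content are not independent. Uhrf1 start 2 and Dnmt1 start 3 held 33 CpG each, Cdca7 26 and Hells 34, where the median of all promoters was 7. Their observed over expected CpG ratios were 0.96, 0.91, 0.99 and 1.06, against a median of 0.38. Promoters without the motif held from 2 CpG at Dnmt1 start 1 to 47 at Dnmt3a start 2. Dnmt3b held 30, the other Dnmt3a starts 46 and 18, and Uhrf1 start 1 and Dnmt1 start 2 held 12 each.

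The values of each gene follow by role. Intensities are linear and quantile normalized, which gives both arrays 1 distribution, and log2 ratios are fibers over epithelium. A probe counted as measured above a floor of 44.6 for epithelium and 32.1 for fibers, the level that 95% of probes for genes taken as silent in lens did not pass. Of the 11 probes, 5 passed it on both arrays and 6 on neither, so each gene rests on 1 probe. Between genes, only ratios are compared, because probes differ in brightness.

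Uhrf1, the hemimethylated CpG reader, was deposited at 1160 in epithelium and 148 in fibers on probe ILMN_2517041. After normalization it read 1194 and 149, an 8.02-fold difference (log2 ratio -3.00). Both values were well over the floors, so the transcript was detected in both tissues. Its second probe, ILMN_2497581, was deposited at -2 and -5 and gave no signal in either tissue. Of 4264 measured genes with several probes, 3581 (84.0%) had at least 1 probe below the floor on both arrays. That share covers genes of any brightness and any number of probes, so it does not account for a silent probe beside a bright one. Why the Uhrf1 probes differ was not tested.

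Dnmt1, the maintenance methyltransferase, has 1 probe, deposited at 873 in epithelium and 164 in fibers. It read 868 and 164 after normalization, with fibers at 18.9% of epithelium (log2 ratio -2.41). Both values were above the floors, and the fall was the smallest of the 3 maintenance genes.

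Cdca7, which recruits HELLS to DNA, was deposited at 524 in epithelium and 48 in fibers on its 1 probe. The normalized values were 530.5 and 48.3, with fibers at 9.11% of epithelium (log2 ratio -3.46). Only 8 of 2986 genes above the floor on both arrays had a lower ratio. The fibers value stood just above its floor, and with a floor at the 99th percentile of the silent probes the ratio became a bound of -2.72.

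Hells, the remodeller that works with CDCA7, was below the floor with both of its probes. Probe ILMN_2619885 was deposited at 7 in epithelium and -1 in fibers, and ILMN_2672461 at -2 and 2. These values give no ratio, and its level in either tissue was not detectable here.

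Dnmt3a, a de novo methyltransferase, was deposited at 78 in epithelium and 82 in fibers on its brightest probe, and read 78.2 and 81.5 (log2 ratio 0.06). The other probes for it were below the floor, deposited at 14 and 10 on 1 and at 2 and 11 on the other. Dnmt3b, its close relative, was deposited at 66 and 90 and read 65.9 and 89.8 (log2 ratio 0.44), with a second probe at -4 and -1. Both genes were dim, and both changed sign under scaling to housekeeping genes, to -0.88 and -0.49. No direction is given for either.

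**Figure D2:**
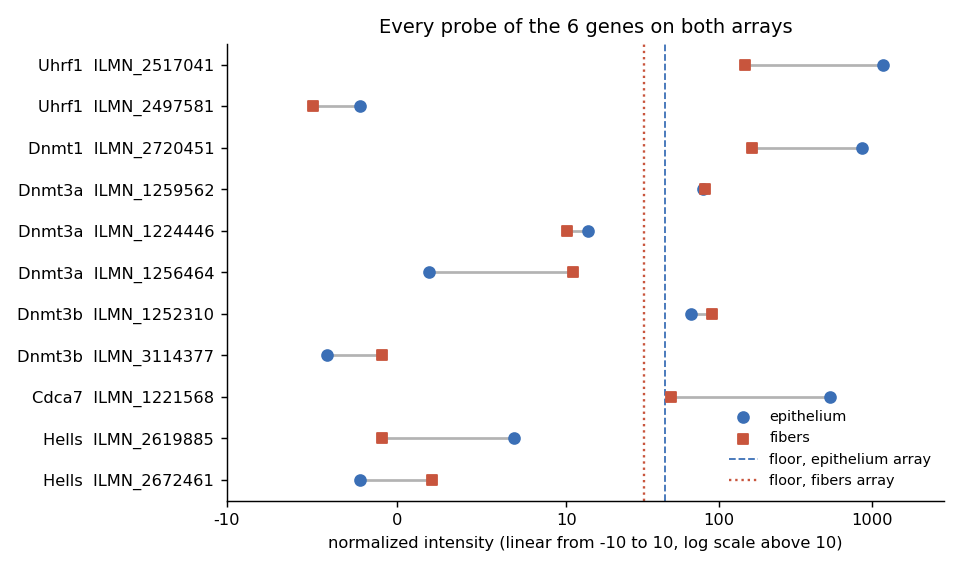
Normalized intensity of all 11 probes in epithelium (blue circles) and fibers (red squares), on an axis that is linear up to 10 and logarithmic above, with the floor of each array as a vertical line. Uhrf1, Dnmt1 and Cdca7 have 1 probe each far brighter in epithelium, the bright Dnmt3a and Dnmt3b probes nearly coincide, and 6 probes lie below the floors.

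The technical spread that the arrays offer is given beside the ratios as a description, since the genes were chosen with the ratios in view. In 472 genes with several probes above the floor on both arrays, the log2 ratios of a gene's probes differed by a median of 0.57, and by 1.90 at the 90th percentile. Cdca7 and Uhrf1 lay 0.45 apart and Dnmt3a and Dnmt3b 0.39 apart, under that median, while Uhrf1 and Dnmt1 lay 0.60 apart. Dnmt1 and Dnmt3a lay 2.46 apart. With no floor and an offset of 32 their log2 ratios were -2.20 and 0.04. Under the floor at the 99th percentile Dnmt3a had no direction. The source of the gap was not tested. Among 32 silent probes that passed both floors, log2 ratios had a median of -0.49 and an SD of 0.84. They ran from -2.30 to 2.37, so probes for genes taken as silent also gave wide ratios on these arrays.

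In the order of ratios over the 2986 genes on both arrays, counted from the most epithelial, Cdca7 was at place 9, Uhrf1 at 22 and Dnmt1 at 63. Dnmt3a stood at place 1793 and Dnmt3b at 2187, within the bulk. Over all 6451 measured genes, where bounds enter at their value, the places were 30, 71, 168, 3809 and 4628. Under the other scalings, floors and probe rules that gave a value, Cdca7 ranged from -4.39 to -2.72, Uhrf1 from -3.94 to -2.76 and Dnmt1 from -3.34 to -2.20. Each of the 3 stayed past 2-fold toward epithelium in all of these.

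**Figure D3:**
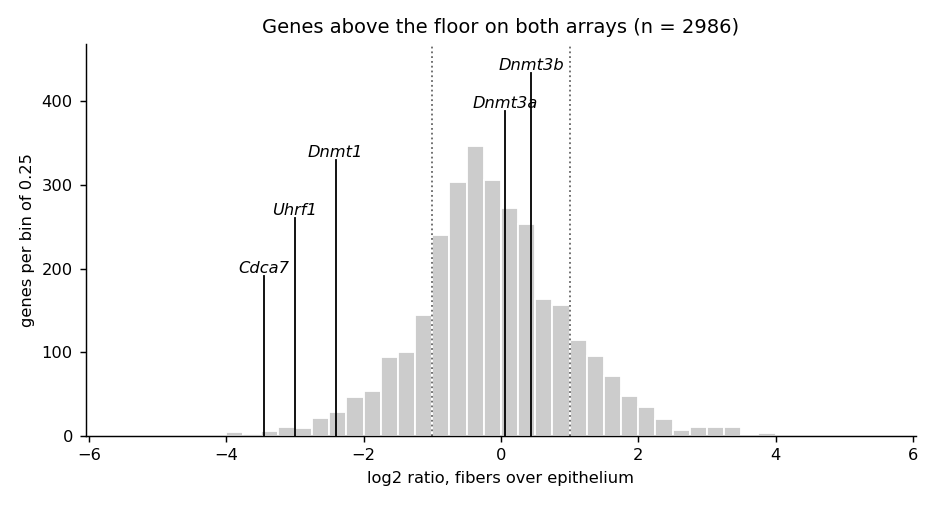
Histogram of log2 ratios, fibers over epithelium, for the 2986 genes above the floor on both arrays, in bins of 0.25, with dotted lines at 2-fold. Cdca7, Uhrf1 and Dnmt1 lie in the left tail at -3.46, -3.00 and -2.41, while Dnmt3a and Dnmt3b lie near the centre at 0.06 and 0.44.

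**Figure D4:**
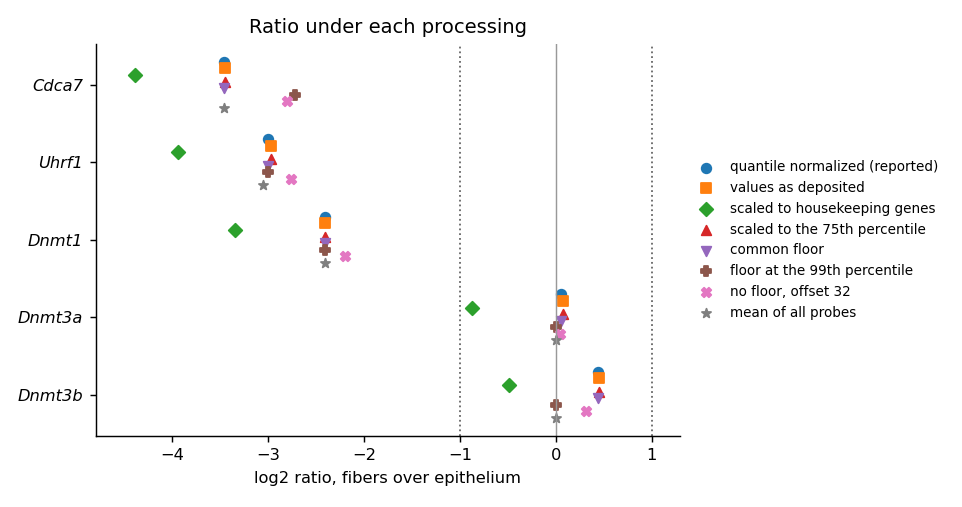
Log2 ratio of the 5 measured genes under quantile normalization and each alternative that gave a value (second brightest probes gave none), with dotted lines at 2-fold. Points at exactly 0 for Dnmt3a and Dnmt3b stand for no direction, and scaling to housekeeping genes moves every gene left by 0.94.

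The genes with the nearest ratios, the 3 closest to each member among genes above the floor on both arrays, were mostly of other functions. Genes with a bound were left out. Nearest to Cdca7 was Mcm4, a subunit of the replicative helicase (-3.46), with Robo1, a guidance receptor (-3.48), and Sertad2 (-3.50). Nearest to Uhrf1 were the transcription factor Tfap2c (-3.02), Spindoc (-2.98) and Ctc1, a telomere replication factor (-2.95). Nearest to Dnmt1 were Taf1a, of the RNA polymerase I machinery (-2.41), Tsc22d2 (-2.39) and Glce, a heparan sulfate epimerase (-2.42). Dnmt3a lay beside Mrps7, Sec63 and Oxsr1, all at 0.06, and Dnmt3b beside Gtf3c6, Prkg1 and Slc66a2, all at 0.45. With 2 arrays, likeness is likeness of 1 ratio.

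Partners of maintenance methylation split. Of 11 partner genes on the array 7 were measured. At 2-fold or more, 2 favoured epithelium and 1 favoured fibers (5 and 0 when scaled to housekeeping genes). The median log2 ratio was -0.80 where that of all measured genes was 0.00, with genes of no direction entered as 0. Over the 2986 genes on both arrays alone, the median was -0.19. Usp7, the deubiquitinase that stabilises UHRF1 and DNMT1, read 213 in epithelium and 63.3 in fibers (log2 ratio -1.75), though a second probe gave 0.14. Hdac2, a histone deacetylase that binds DNMT1, read 355 and 127 (-1.48). Zbtb24, mutated like CDCA7 and HELLS in the ICF immunodeficiency syndrome, read 59.5 in epithelium and was below the floor in fibers, at least 1.85-fold higher in epithelium. Wdr76 went the other way, 8.94 in epithelium and 102 in fibers, at least 2.29-fold higher in fibers.

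Other partners were chosen for mention after their values were seen. Uhrf2, the relative of Uhrf1 that does not replace it in maintenance, read 484 in epithelium and 336 in fibers (-0.53), and a second probe gave 0.38. Its 1.44-fold difference stands beside 8.02-fold for Uhrf1. Pcna, the clamp that holds DNMT1 at the fork, was dim, at 55.8 in epithelium and 6.08 in fibers, at least 1.74-fold higher in epithelium. Lig1, the ligase that UHRF1 also binds, was above the floor in fibers only, at 66.0, at least 1.48-fold higher there. Pclaf, the clamp-associated factor whose ubiquitinated form recruits DNMT1, was below both floors at 10.9 and -5.92.

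Genes that steer de novo methylation showed no common direction: of 8 measured among 11 on the array, 1 was higher by 2-fold or more in each tissue, with a median of -0.26. Scaled to housekeeping genes, 4 favoured epithelium and 0 favoured fibers by as much. With a common floor for both arrays, 0 favoured epithelium and 1 favoured fibers. Setdb1, the H3K9 methyltransferase of the KAP1 pathway, read -0.12 in epithelium and 139.7 in fibers, at least 3.13-fold higher in fibers. Suv39h2, another H3K9 methyltransferase, was at least 2.14-fold higher in epithelium (68.9 against -7.91). The heterochromatin protein gene Cbx5 (-0.91) and Trim28, which encodes KAP1 (-0.84), were lower in fibers by less than 2-fold. Dnmt3l, the cofactor without catalytic activity, was below both floors.

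The demethylation list had 4 measured genes among 9 on the array, and 1 was higher by 2-fold or more in fibers. Gadd45g, a stress and differentiation gene proposed to act in demethylation, read 73.0 in epithelium and 497.5 in fibers (6.82-fold higher in fibers). Its second probe was at least 1.76-fold higher there. Gadd45a, Tet3, which encodes a 5-methylcytosine oxidase, and the thymine glycosylase gene Tdg were above the floor in fibers only, with bounds of 1.28-fold, 1.06-fold and 1.04-fold. Tet1 read -6.06 and -0.88 and was not detectable.

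Of 8 methyl-CpG reader genes on the array only Mbd1 was measured, at 48.8 in epithelium and 126.8 in fibers (2.60-fold higher in fibers, under 2-fold when scaled to housekeeping genes), and a second Mbd1 probe went the other way (log2 ratio -0.93). Methyl donor supply held 4 measured genes among 12 on the array. Mtap, which salvages methionine from a polyamine by-product, read 124 and 514 (4.14-fold higher in fibers), and a second probe gave 2.99-fold. Ahcyl1, related to the enzyme that clears S-adenosylhomocysteine, had a log2 ratio of -0.44, and Mat2b and Mtrr had no direction. Ahcy itself, at 24.9 and 23.0, was below both floors.

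Germline genes that promoter methylation keeps silent in somatic tissue showed little signal. Of 15 on the array, 14 were below both floors, among them Dazl, Sycp3 and Mael. Most genes of the array were too, 12606 of 19057. Ddx4 passed the fibers floor only, at 37.9 in epithelium and 40.3 in fibers, with no direction. Methylation itself was not measured here.

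Replication fork and licensing genes act in the S phase or in the steps that lead to it. Of 28 on the array 16 were measured. At 2-fold or more, 11 favoured epithelium and 0 favoured fibers, with a median log2 ratio of -1.65. The shares of all measured genes were 18.5% and 15.5%. Scaled to housekeeping genes, the counts were 15 and 0, beside 44.7% and 3.96% of all measured genes. The count of 11 was 5 under the stricter floor and 7 when all probes of a gene were averaged, and with the second brightest probe 2 favoured epithelium and 1 favoured fibers. Bounds made up 10 of the 16, and the direction of a bound is set by which array passed its floor. Mcm5 was at least 24.9-fold higher in epithelium, Mcm4 11.0-fold, Ccne2, a cyclin of S-phase entry, at least 9.52-fold and the ribonucleotide reductase gene Rrm2 6.98-fold. Rfc1, a clamp loader subunit chosen after its value was seen, had a log2 ratio of 0.07. The difference between these genes and the maintenance genes was not tested.

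**Figure D5:**
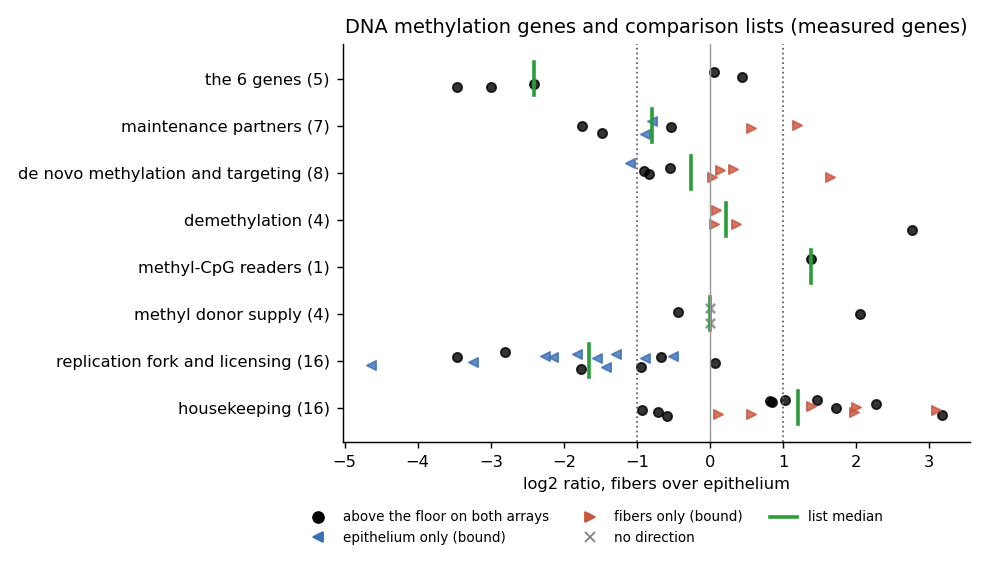
Log2 ratios of measured genes in each list, with counts in brackets; circles passed the floor on both arrays, triangles are bounds that point to the brighter tissue, crosses have no direction, green bars are list medians and dotted lines mark 2-fold. The 6 genes (median -2.41 over 5 measured) and the replication genes (-1.65) lie left of the other methylation lists, and housekeeping genes lie right (1.20).

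Values that moved with these results were as follows. Of 6 cycling-cell markers on the array 4 were measured, and 2 were higher in epithelium by at least 2-fold, Plk1 (at least 8.62-fold) and Aurka (at least 2.96-fold). Ccna2 was at least 1.70-fold and Cdk1, the only marker on both arrays, 1.37-fold higher there, and Top2a and Bub1 were below both floors. Their summed intensity was 550.3 in epithelium and 107 in fibers. In such bulk samples fewer cycling cells and less RNA per cell cannot be told apart. All 4 measured epithelium markers were higher in epithelium and all 6 fiber markers in fibers by 2-fold or more, but Foxe3, a defining epithelium gene, was at background on both arrays (-2.14 and 0.10). Retina markers summed to 1403 in epithelium and 232 in fibers, mostly from Sfrp2, with Rax and Lhx2 near 0 and 2 of 6 genes measured. Periocular mesenchyme markers summed to 269.9 and 76.0, from Tfap2b as the only 1 of 7 measured, with Col1a1 and Foxc2 near 0. Their part in the results was not tested.

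Other cell types gave little signal. Surface ectoderm markers summed to 110.5 in epithelium and 120.4 in fibers with 1 of 5 measured, erythroid markers to 141 and 213 with 2 of 5, and macrophage markers to 97.5 and 80.6 with 2 of 5. Endothelium markers summed to 70.5 and 112 with 1 of 6, and pigment cell markers to 204 and 114 with 2 of 6. Housekeeping genes read higher in fibers, with a median of 2.30-fold over 16 measured genes. Scaled to the 10 of them on both arrays, the median of all measured genes moved to -0.69, and the split at 2-fold or more became 2864 genes toward epithelium and 254 toward fibers, against 1196 and 1002 as reported.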

How the data were processed

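The authors deposited 1 intensity for each of 45281 probes on each of 2 Illumina arrays, as whole numbers that reach -16. A background had therefore been subtracted, but software, scaling and genome build are not given in the sources at hand. Per the labels' protocols, biotin-labelled total RNA from a column kit was hybridised. With Python 3.11.15, numpy 2.4.6 and pandas 2.3.3, both arrays were brought to 1 distribution by linear-scale quantile normalization, in code tested on simulated data. The platform annotation gave 34885 probes 1 symbol, 18 several and 10378 none, and the gene ID of 34807 was found in RefSeq's table. Each gene takes its brightest probe, by the mean of both arrays. The floor was the 95th percentile of 1580 probes for 1308 receptor and keratin-associated genes. A gene above it on 1 array has a bound, written "at least", the bright value over the other floor. Where that bound fell under 1, as for 773 genes, no direction is given and the gene enters medians as 0. Since the epithelium floor is the higher, this befell only genes above the floor in fibers alone. A gene just over the epithelium floor still has an epithelium bound, such as Mcm7 at 45.6 with at least 1.42-fold. Measured means above the floor on at least 1 array (6451 genes, 33.9% of those named). All counts use 2-fold. Named genes are all members with every probe, up to 4 genes a list by absolute log2 ratio, any other list gene at 2-fold against its list's direction, the 3 nearest ratios, and markers. Other genes named, among them those below the floors, Uhrf2, Pcna, Lig1 and Rfc1, were chosen after their values were seen. Members and lists were chosen with earlier results of these data known. In all, 9 alternatives were tried. The number of arrays limits the precision, since 1 a group leaves no replicate error. Probe and protein sequences were not used here.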

Additional observations from a re-analysis of the deposited data

How the results depend on the processing

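No paired analysis was possible because each tissue has 1 array. With no replicates, a ratio was taken as moved when it changed by 1.5-fold. Values as deposited, the 75th percentile (equal on both arrays, so the same values) and a common floor moved no member ratio, list median or count over all genes that far. With the common floor, though, 899 genes were higher in epithelium and 1002 in fibers, against 1196 and 1002 as reported. The median then was -1.21 for replication genes and -0.42 for maintenance partners. Scaling to housekeeping genes gave -3.94 for Uhrf1, -3.34 for Dnmt1, -4.39 for Cdca7, -0.88 for Dnmt3a and -0.49 for Dnmt3b. It gave medians of -1.73 for maintenance partners and -2.59 for replication genes, with 2864 genes higher in epithelium and 254 in fibers, as its construction shifts every ratio one way. A floor at the 99th percentile gave -2.72 for Cdca7, 467 genes and 345 genes, and no floor with an offset of 32 gave -2.81 for Cdca7 and 1.31 for the demethylation median. The mean of all probes gave 751 and 660 genes. The second brightest probe gave 250 and 219 genes and a replication median of -1.0, and it gave no ratio for the 6 genes: Dnmt1 and Cdca7 have no second probe, and those of the other 4 passed no floor. A fold of 1.5 gave 2006 and 1588 genes. Counts within the lists moved past 1.5 times in 33 of 144 comparisons with an alternative. As to signal over background, Cdca7 in fibers, Dnmt3a, Dnmt3b and Pcna lie near the floors, and Hells is under them.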

Other observations

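The E2F-type motif was set against the ratios of all genes, a comparison made after the promoters of the 6 genes had been seen and given without a test. Of 250 measured genes with the motif in a promoter, 63 (25.2%) differed by 2-fold or more toward epithelium and 30 (12.0%) toward fibers. Of 4998 measured genes without it, 906 (18.1%) and 794 (15.9%) were. Leaving out the 6 genes and the replication list, the shares with the motif were 23.6% and 12.4% of 242 genes. The median log2 ratio over all measured genes was 0.00 with the motif and 0.00 without, with genes of no direction entered as 0. Over genes on both arrays alone it was -0.42 (111 genes) and -0.16 (2310 genes).

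Genes with the motif went both ways, and those named here were chosen after their values were seen. Cdk2, a kinase of S-phase entry, read 609 in epithelium and 44.3 in fibers (13.7-fold). Mis18a, which licenses centromeric chromatin, read 1160 and 176 (6.60-fold). The adaptor gene Shc1 read 101 and 832 (8.26-fold higher in fibers), and the chaperonin subunit gene Cct3 read 48.8 and 295 (6.05-fold higher in fibers).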
